A study of Mus musculus with 6 samples.

Results

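The endoplasmic reticulum (ER) folding and stress genes described here are 33 named genes for the sensors, chaperones, disulfide isomerases, degradation factors and translocon subunits of the ER. Each was read from the array row that carried its symbol and no other, and the row with the highest mean over the arrays was used where a gene had several. All 33 had such a row, out of 19938 genes with one. Of these, 32 were bright enough to be tested, among 10021 genes tested in all. Derl3, which encodes a membrane protein of ER-associated degradation, was dim on every array, at 3.35, 3.74 and 3.5 on the log2 scale in WT and at 3.31, 3.65 and 3.29 in the KO-labelled arrays.

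Proteins that a cell secretes or places on its surface are threaded into the ER through the Sec61 channel, folded there by chaperones and disulfide isomerases, and shipped onwards in COPII-coated vesicles, while misfolded proteins are pulled back to the cytosol and degraded. When unfolded proteins accumulate, the membrane sensors IRE1 (Ern1), ATF6 and PERK (Eif2ak3) start the unfolded protein response. IRE1 splices the mRNA of Xbp1 into the form that encodes an active transcription factor, and cleaved ATF6 enters the nucleus, where both raise the genes of folding and degradation. Effector CD8+ T cells make large amounts of cytokines and granule proteins through this route, and XBP1 is known in them as a factor of the effector state.

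Splenic CD8+ T cells (CD8-TC) of ICR mice gave 3 WT (Runx3 +/+) and 3 Runx3-/- samples, labelled as males aged 6 weeks, with 1 Affymetrix mouse gene ST 1.0 array per sample. The methods call the samples biological repeats and do not say how many mice went into each, so p-values measure the spread between these samples. Both groups were activated on plate-bound anti-CD3 with soluble anti-CD28 for 2 days and then grown for 4 days in human IL-2 at 100 units per ml. Runx3-/- cells were in addition FACS sorted, to take out CD11c+CD8+ dendritic cells before culture and CD4+CD8- T cells after it, so that sorting and genotype cannot be told apart. The comparison asks how the loss of Runx3, a transcription factor of cytotoxic lymphocytes, bears on these genes in the activated state, and the number of arrays limits its precision.

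The label check left doubts that touch every direction given here. Runx3 itself lay at 8.77, 8.26 and 9.16 in WT and at 8.91, 9.11 and 9.27 in the other group, and the labels and methods do not say which exons were lost, so the arrays are called KO-labelled. WT1 carried Xist at 10.6, against 3.31 to 3.40 on the other 5 arrays, which goes against its male label. Without WT1, the same 3 members were lower at the study's cut-off as with it. Array medians lay between 4.15 and 4.35. T cell markers averaged 10.3 to 10.8 in WT and 10.6 to 10.9 in KO-labelled arrays over 6 genes, Cd3e and Cd8a among them. Of these, Cd5 was higher at the study's cut-off (1.12) without overlap between groups, and the rest did not pass it. Dendritic markers averaged 3.51 to 3.71 and 3.53 to 3.86, with 8 of 10 below the table median of 4.26 on every array, Itgax (CD11c) among them. The tested ones were H2-Eb1 (difference 0.39) and Cd74 (0.80), and Cd74 stood at 5.74 in KO1 against 3.49 to 4.13 in WT. B and plasma cell markers averaged 4.09 to 4.24 and 3.90 to 4.08 (6 of 9 dim, Cd79a, Ms4a1, Pax5 and Sdc1 among them), and NK markers 4.96 to 5.12 and 3.96 to 4.56 (3 of 5 dim, Ncr1 among them). At the study's cut-off Cd79b (-0.93) and Irf4 (-1.02, also a gene of activated T cells) of the B and plasma cell list and Klrb1c (-1.56) and Eomes (-1.76, also a gene of CD8 T cells) of the NK list were lower, while Prdm1 differed by 0.02 and the dim Cd79a was higher on every KO-labelled array. CD4 T cell markers averaged 5.14 to 5.43 and 5.35 to 5.89 (1 of 4 dim), with Cd4 (0.95) and Zbtb7b (0.64) higher at the cut-off and Foxp3 at -0.32. The paper names Cd4 and Zbtb7b among genes known to be affected by Runx3 loss as CD8-TC develop. In its section on resting cells it reports Cd4 as increased upon that loss. The part of these markers in the results was not tested, and fewer cells of a type cannot be told from less RNA per cell in bulk RNA.

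Most ER folding and stress genes sat slightly lower in KO-labelled cells, but few of them by more than arrays of 1 genotype differed from each other. Xbp1, Sec61b (a subunit of the Sec61 channel) and Sec24d (a cargo adaptor of COPII vesicles) were lower at the study's cut-off, a 1.5-fold change with an unadjusted p below 0.05 in limma, and no member was higher. These 3 of 32 members (9.38%) stand beside 4.33% of all tested genes lower and 3.97% higher at this cut-off. After Benjamini-Hochberg adjustment in limma, 0 members were called, where 0.629% of all tested genes were called. An unadjusted p under 0.05 in limma was found for 3 of 32 members and for 1413 of all 10021 tested genes. The log2 difference, KO-labelled minus WT throughout, was below 0 for 25 of 32 members (78.1%) and for 52.0% of all genes, with a median of -0.18 against -0.01.

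The groups did not overlap for 7 members. All 3 KO-labelled arrays lay below all 3 WT arrays for Xbp1, Atf6, Ern1, Herpud1, Sec61b and Sec24d, 6 of 32 (18.8%) where 10.9% of all genes did so, and above them for Dnajc3 alone, where 11.6% of all genes did so. For 26 members (81.3%) the range among the 3 KO-labelled arrays exceeded the difference between the genotypes, as for 75.4% of all genes. The heat map of members by array shows this, with WT2 and KO1 high and KO2 low for many of the folding genes, though not for Dnajb9 and Dnajc3.

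**Figure D1:**
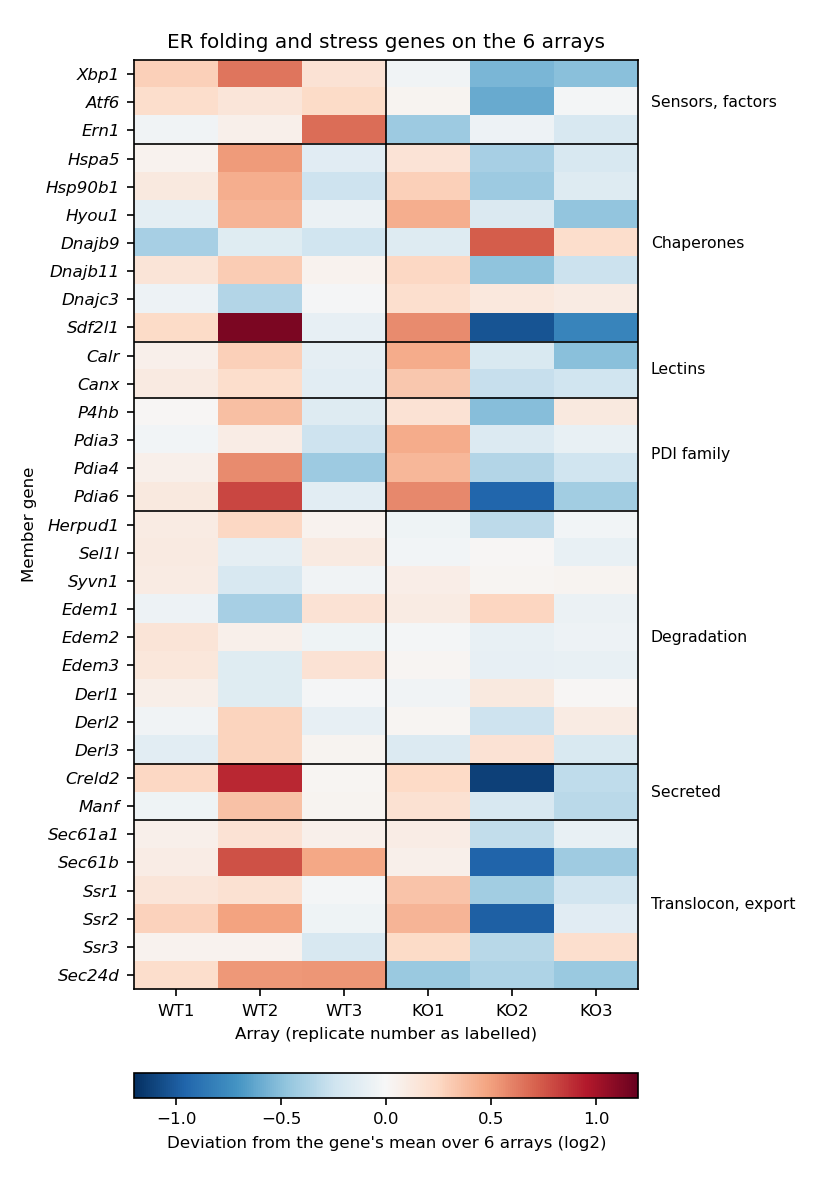
Deviation of each of the 33 members from its own mean over the 6 arrays (log2, colour), with arrays as columns and genes grouped by role; WT left and KO-labelled right of the vertical line. Sdf2l1, Pdia6 and Creld2 span the widest range, while Sec24d is low on all 3 KO-labelled arrays (4.65 to 4.73 against 5.30 to 5.63).

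Promoters were examined because many of these genes are known to be raised together through shared elements. Of the 33 genes, 27 had a promoter in the RefSeq table used (GRCm38.p6, 250 bases before to 50 after the start), Derl2 with 2 of them, and Atf6, Hyou1, Derl1, Manf, Sec61a1 and Ssr2 had none there. Both strands were searched for the ER stress response element (ERSE: CCAAT, 9 bases of any kind, CCACG), which ATF6 and XBP1 are known to bind with the CCAAT-binding factor NF-Y. It was found for 9 of 27 members (33.3%) and in 0.119% of all 32851 promoters of the table. The sites are shown in full to let their shared ends and differing middles be seen, with the fixed letters in capitals and the 9 free bases in lower case, read 5′ to 3′ along the strand given.
Calr, chr8:84847075-84847093, strand +: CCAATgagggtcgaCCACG
Canx, chr11:50325800-50325818, strand -: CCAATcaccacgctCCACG
Creld2, chr15:88819520-88819538, strand -: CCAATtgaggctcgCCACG
Derl3, chr10:75893242-75893260, strand -: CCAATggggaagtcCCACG
Dnajc3, chr14:118937827-118937845, strand +: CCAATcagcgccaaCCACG
Hsp90b1, chr10:86705533-86705551, strand +: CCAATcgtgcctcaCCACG
Hsp90b1, chr10:86705638-86705656, strand -: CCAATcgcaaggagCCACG
Hspa5, chr2:34772025-34772043, strand +: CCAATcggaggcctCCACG
Pdia6, chr12:17266491-17266509, strand +: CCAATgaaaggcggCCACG
Syvn1, chr19:6046532-6046550, strand +: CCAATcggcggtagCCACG

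The shorter ERSE-II (ATTGG, 1 base of any kind, CCACG) was found for Dnajb11 and Herpud1 and in 0.0365% of all promoters. It shares its last 5 letters with the ERSE. For Dnajb11 it lay just after the annotated start.
Dnajb11, chr16:22857852-22857862, strand +: ATTGGcCCACG
Herpud1, chr8:94386377-94386387, strand +: ATTGGgCCACG

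An XBP1-type element, the UPRE (TGACGTGG), was found for Sec24d only and in 0.676% of all promoters. At least 1 of the ERSE, ERSE-II and UPRE was found for 12 of 27 members (44.4%) and in 0.822% of all promoters. The RUNX motif was searched in 4 forms. Of these TGTGGT was found for 0 of 27 members and in 16.8% of all promoters, and TGTGGC for 9 members and in 18.9%. The form TGCGGT was found for 6 members and in 6.45% of all promoters, and the form TGCGGC for 7 members and in 12.4%. At least 1 form was found for 17 of 27 members (63.0%) and in 45.2% of all promoters. A match is a description of letters and not a bound site. Runx3 binding was not measured in these samples. The study mapped it by ChIP-seq in IL-2-activated CD8-TC, and those data were not used here.

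The 250 bases before the annotated start are shown for the 3 members that were lower at the study's cut-off and for Hspa5, the classical ERSE gene, which was not, with fixed letters of ERSE, ERSE-II or UPRE matches in capitals.
Xbp1 promoter, chr11:5520391-5520640, strand +: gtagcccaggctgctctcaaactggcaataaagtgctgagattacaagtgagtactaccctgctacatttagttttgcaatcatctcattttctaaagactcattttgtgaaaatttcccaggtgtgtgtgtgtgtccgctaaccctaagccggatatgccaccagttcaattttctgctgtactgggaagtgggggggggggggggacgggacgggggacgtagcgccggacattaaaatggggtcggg
Sec24d promoter, chr3:123267246-123267495, strand +: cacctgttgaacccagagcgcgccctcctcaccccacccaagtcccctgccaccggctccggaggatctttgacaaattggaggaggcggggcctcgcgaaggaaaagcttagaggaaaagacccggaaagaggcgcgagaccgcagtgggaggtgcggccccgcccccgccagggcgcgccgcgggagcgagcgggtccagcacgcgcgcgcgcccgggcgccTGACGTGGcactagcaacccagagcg
Sec61b promoter, chr4:47474411-47474660, strand +: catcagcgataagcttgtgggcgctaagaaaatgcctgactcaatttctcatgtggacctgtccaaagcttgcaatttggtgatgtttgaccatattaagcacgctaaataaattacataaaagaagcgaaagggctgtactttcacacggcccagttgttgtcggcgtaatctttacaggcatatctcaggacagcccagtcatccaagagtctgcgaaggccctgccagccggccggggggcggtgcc
Hspa5 promoter, chr2:34771840-34772089, strand +: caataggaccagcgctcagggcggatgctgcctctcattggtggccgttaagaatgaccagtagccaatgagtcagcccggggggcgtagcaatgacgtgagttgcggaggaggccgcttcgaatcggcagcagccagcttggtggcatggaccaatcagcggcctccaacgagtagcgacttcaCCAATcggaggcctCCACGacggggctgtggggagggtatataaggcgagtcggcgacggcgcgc

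The sequences show no exact match of the 3 elements for Xbp1 and Sec61b, a UPRE near the start of Sec24d, and 1 exact ERSE for Hspa5. Only the letters given above were searched, so near matches, in Hspa5 as elsewhere, were not counted. The 11 tested members with a match had a median log2 difference of -0.26 (1 lower at the cut-off), and the 15 tested members searched without one had -0.11 (2 lower). Over all genes the median was -0.01, with 4.33% lower at the cut-off. The difference between the 2 groups of members was not tested.

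Among the sensors and transcription factors, all 3 members lay lower in KO-labelled cells with no overlap between groups, as did 10.9% of all genes. Related genes of the wider ER list did not follow. Eif2ak3 (-0.41) and Atf6b (-0.12) overlapped between groups, and Creb3 lay above WT on every KO-labelled array (0.26). Xbp1 stood at 8.09, 8.44 and 7.97 in WT and at 7.76, 7.25 and 7.30 in the KO-labelled arrays. KO1 was the nearest of these to the WT arrays. The log2 difference was -0.73 (SE 0.20, 95% interval -1.21 to -0.26), a ratio of 0.603, with an adjusted p of 0.208 in limma. The array row combines probes along the transcript, so spliced and unspliced Xbp1 mRNA were not told apart.

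Atf6, the sensor that becomes a transcription factor when cleaved, stood at 7.02, 6.96 and 7.04 in WT and at 6.85, 6.21 and 6.79 in KO-labelled cells. The WT arrays were within 0.0789 of each other, and KO2 was the lowest array by a wide margin (difference -0.39, interval -0.85 to 0.07, adjusted p = 0.413, limma). Ern1, the IRE1 kinase and RNase, stood at 4.73, 4.84 and 5.45 against 4.34, 4.72 and 4.59. WT1 and KO2 nearly touched, WT3 stood highest, and these values are close to the table median (difference -0.46, interval -0.99 to 0.07, adjusted p = 0.408, limma).

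**Figure D2:**
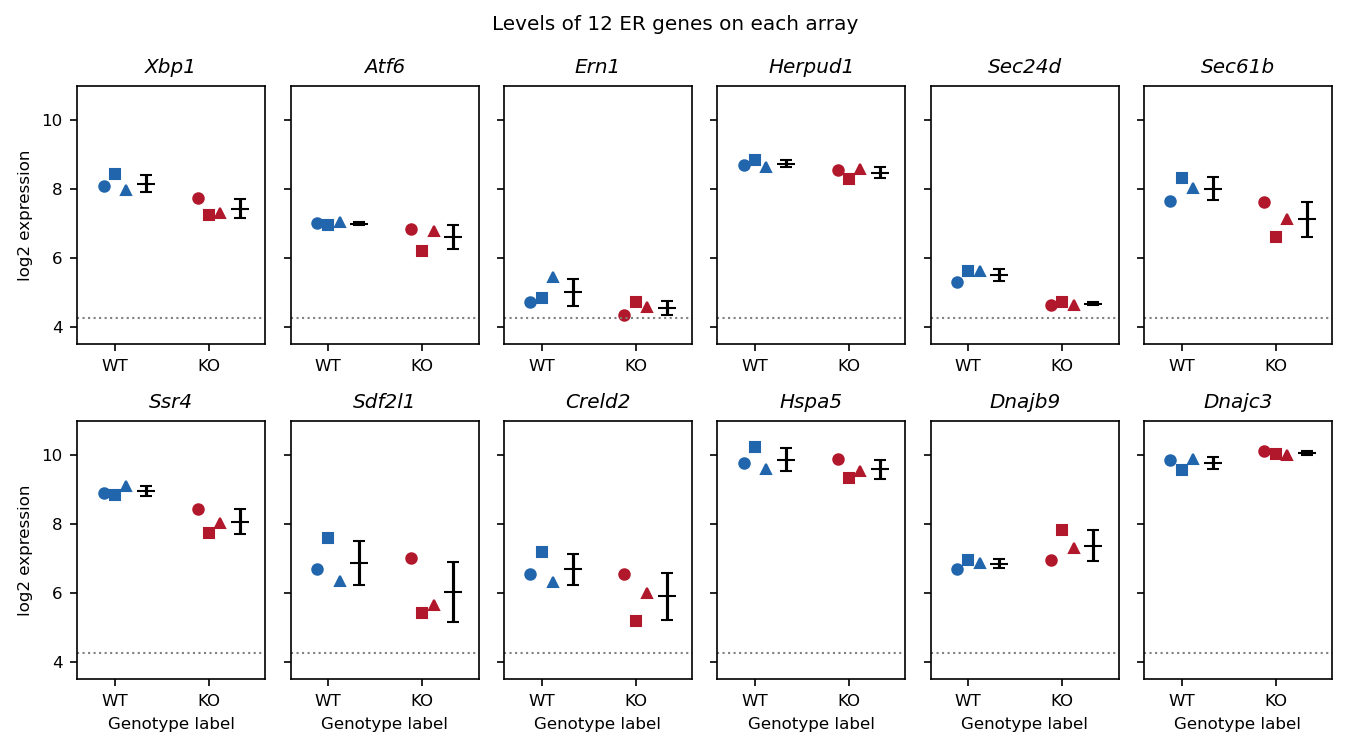
Log2 level of 12 ER genes by array, with WT in blue and KO-labelled arrays in red, and symbol shape for the replicate number (1 circle, 2 square, 3 triangle). Black bars give the mean ± SD (n = 3) and the dotted line the table median of 4.26. Xbp1, Atf6, Ern1, Herpud1, Sec24d, Sec61b and Ssr4 do not overlap between groups, while Sdf2l1, Creld2 and Hspa5 do.

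Apart from Dnajc3, the ER chaperones overlapped between genotypes. Hspa5 (BiP), the ER Hsp70 that also holds the sensors inactive, stood at 9.78, 10.25 and 9.60 in WT and at 9.90, 9.33 and 9.54 in KO-labelled cells. KO1 was above 2 of the WT arrays, and the difference was -0.28 (interval -0.82 to 0.25). Hsp90b1 (GRP94), the ER Hsp90, stood at 10.81, 11.13 and 10.45 against 10.97, 10.25 and 10.54, a difference of -0.21 (interval -0.79 to 0.38). In both genes WT2 was the highest array and KO2 the lowest. Hyou1, a nucleotide exchange factor of BiP, differed by -0.14, and Dnajb11, a J-domain cochaperone of BiP, by -0.33, each with an interval that spans 0.

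Sdf2l1, a partner of the ER J-domain cochaperones, had one of the largest differences and also the widest spread. It stood at 6.69, 7.58 and 6.36 in WT and at 7.02, 5.41 and 5.66 in KO-labelled cells. KO1 lay among the WT arrays while KO2 and KO3 lay below all of them, a difference of -0.85 with an interval of -1.99 to 0.29 (adjusted p = 0.463, limma).

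A pair of J-domain cochaperones of BiP lay the other way. Dnajb9 (ERdj4), which is widely used as a readout of spliced XBP1, stood at 6.71, 6.97 and 6.87 in WT and at 6.96, 7.84 and 7.32 in KO-labelled cells. KO2 was the highest and KO1 lay within the WT range. Its difference of 0.52 (interval -0.03 to 1.08, adjusted p = 0.374, limma) was the highest of the members and opposite in sign to that of Xbp1. Dnajc3 (p58IPK), which also restrains PERK, stood at 9.86, 9.56 and 9.90 against 10.12, 10.04 and 10.01. All KO-labelled arrays were above all WT arrays, by a small amount (0.28, interval -0.06 to 0.63, adjusted p = 0.428, limma).

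Calr and Canx, the lectin chaperones calreticulin and calnexin that hold glycoproteins during folding, differed by -0.16 (interval -0.77 to 0.45) and -0.13 (interval -0.61 to 0.35). Canx stood at 10.79, 10.88 and 10.55 in WT and at 10.996, 10.40 and 10.44 in KO-labelled cells. KO1 was the highest of the 6 arrays for both genes.

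The disulfide isomerases, which form and shuffle disulfide bonds, each had a wider range among the KO-labelled arrays than between the genotypes. This held for 4 of 4, and for 75.4% of all genes. Pdia6 stood at 9.05, 9.74 and 8.81 in WT and at 9.50, 7.98 and 8.51 in KO-labelled cells. Its range of 1.52 among KO-labelled arrays was well above the genotype difference of -0.53 (interval -1.51 to 0.45). P4hb, the founding member of the family, differed by -0.14, Pdia4 by -0.13 and Pdia3, the partner of calreticulin and calnexin, by 0.13, each with an interval that spans 0. For Pdia4 a second, dim row at 3.41 to 3.8 gave a difference of 0.07.

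**Figure D3:**
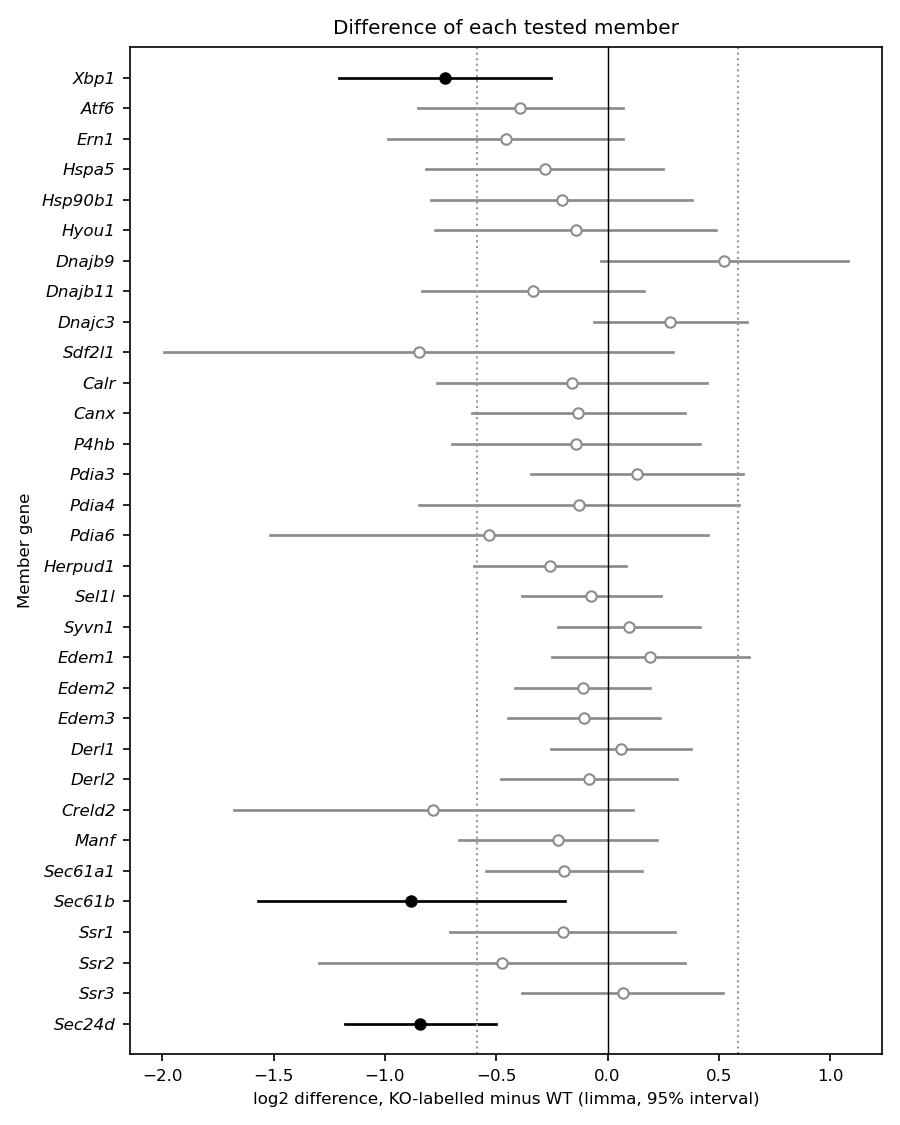
KO-labelled minus WT difference in log2 level for the 32 tested members, in order of role (points, with 95% intervals from limma; n = 3 per group). Filled black points passed the study's cut-off, dotted lines mark a 1.5-fold change, and the intervals of Xbp1, Sec61b and Sec24d lie below 0.

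Genes of ER-associated degradation differed little. The 8 tested members had differences between -0.26 and 0.19, with none past the cut-off, and for 1 of 8 the SD was larger in KO-labelled than in WT arrays. Herpud1, which scaffolds the degradation complex and is strongly raised by ER stress, stood at 8.72, 8.86 and 8.66 in WT and at 8.57, 8.31 and 8.58 in KO-labelled cells. The groups stood apart by a narrow gap, with a difference of -0.26 (interval -0.60 to 0.08, adjusted p = 0.454, limma). The ubiquitin ligase Syvn1 (HRD1) and its partner Sel1l differed by 0.10 and -0.07. The mannosidase-like proteins Edem1, Edem2 and Edem3, which pick out misfolded glycoproteins, differed by 0.19, -0.11 and -0.11, and the derlins Derl1 and Derl2 by 0.06 and -0.08. The intervals of Sel1l, Syvn1, Edem2, Edem3, Derl1 and Derl2 lie within a 1.5-fold change in either direction.

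Creld2 and Manf, small proteins that are made and secreted under ER stress, overlapped between genotypes as well. Creld2 stood at 6.55, 7.20 and 6.32 in WT and at 6.54, 5.18 and 6.00 in KO-labelled cells. KO1 lay level with WT1, and KO2 was lowest by a wide margin (difference -0.78, interval -1.68 to 0.11, adjusted p = 0.403, limma). Manf differed by -0.22 (interval -0.67 to 0.22).

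Among translocon and export genes, Sec24d had the smallest p of all members. It stood at 5.30, 5.61 and 5.63 in WT and at 4.65, 4.73 and 4.65 in KO-labelled cells. The KO-labelled arrays were within 0.0773 of each other and lay below every WT array. As for Ern1, these KO-labelled values are close to the table median of 4.26. The log2 difference was -0.84 (SE 0.14, interval -1.18 to -0.50), a ratio of 0.558, with an adjusted p of 0.0677 in limma. Sec24d was lower at the cut-off without each array in turn and without both WT2 and KO2 (-0.82).

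Sec61b stood at 7.66, 8.34 and 8.04 in WT and at 7.63, 6.62 and 7.15 in KO-labelled cells. WT1 and KO1 were almost level, and the difference of -0.88 (interval -1.57 to -0.19, adjusted p = 0.268, limma) came mainly from the other arrays. Its 3 rows on the array gave -0.88, -0.86 and -0.82, and near-identical copies could share probes, so that the source of the signal is uncertain. Sec61b was no longer lower at the cut-off without WT2 (-0.72). The channel itself, Sec61a1, differed by -0.19 (interval -0.54 to 0.16). The translocon-associated subunits Ssr1, Ssr2 and Ssr3 differed by -0.20, -0.47 and 0.07, and Ssr2 had KO2 at 8.003 while the other 5 arrays lay between 8.84 and 9.46.

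Array by array, the members also differed among arrays of the same label. WT2 was the highest array for 15 of 32 members (46.9%, against 23.7% of all genes) and KO2 the lowest for 18 (56.3%, against 34.7%). As a mean over members of the deviation from each gene's mean, WT1, WT2 and WT3 stood at 0.07, 0.26 and 0.01 and KO1, KO2 and KO3 at 0.15, -0.32 and -0.17. KO1 thus lay above WT1 and WT3. It was above KO2 for 26 of 32 members, by a median of 0.56, whereas over all genes KO1 was above KO2 for 59.7%, by a median of 0.11.

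Proliferation genes differed among the arrays as well. The mean deviation of 14 G2/M genes, Top2a and Plk1 among them, was -1.46 in KO2, against 0.64 in KO1, 0.75 in KO3 and -0.34 to 0.21 in WT. KO2 was thus lowest in both sets. Over all tested genes KO2 was lowest too, with a mean deviation of -0.13 against -0.01 to 0.06 on the other arrays. KO1 and KO3 were alike in G2/M genes but apart in the ER set. The part of cell cycle state in these results was not tested.

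**Figure D4:**
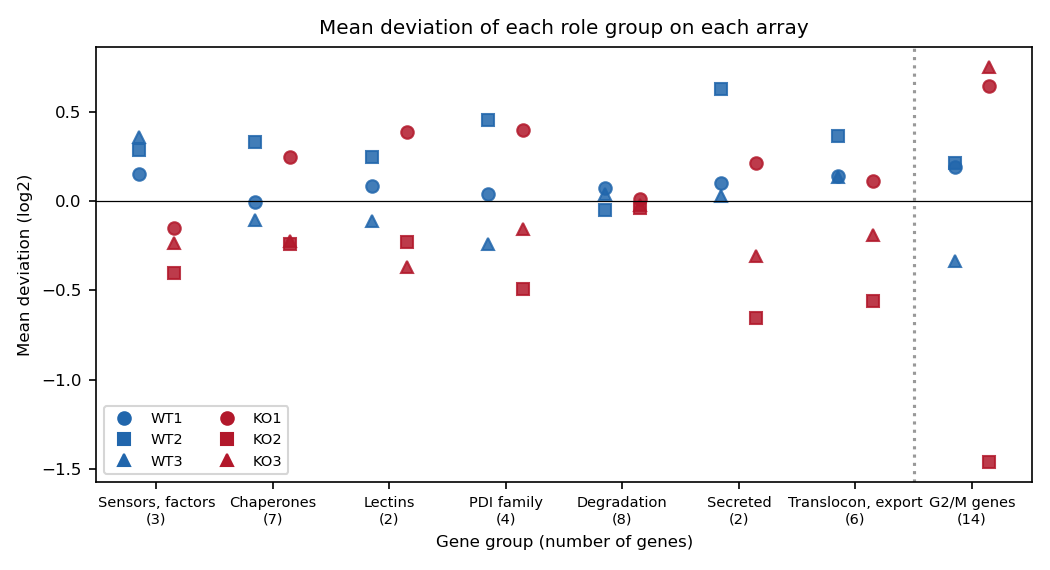
Log2 deviation of an array from the 6-array mean of a gene, averaged over the tested members of each role and, right of the dotted line, over G2/M genes, with WT in blue, KO-labelled arrays in red and symbol shape for the replicate number. The sensor group averages 0.15 to 0.36 in WT and -0.40 to -0.15 in KO-labelled arrays. Each of its 3 genes had no overlap by itself, so this mean could not overlap either. For chaperones KO1 lies at 0.25 beside WT2 at 0.33.

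Of the single arrays, KO1 had the largest effect on how many members passed. Without KO1, 7 members were lower at the cut-off, with Creld2, Pdia6, Sdf2l1 and Ssr2 added to the first 3, and Dnajb9 was higher. Over all genes the share called was then larger too, with 7.42% lower and 5.13% higher. Without both WT2 and KO2 only Sec24d was lower, Xbp1 stood at -0.50, the median over members was -0.02, and 18 of 32 were below 0. Over all genes 3.70% were then lower and 5.09% higher, with a median of 0.02. Of the 3 sensors and factors, Xbp1 kept a difference of -0.59 or further from 0 when any 1 array was left out, and passed the cut-off each time.

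A wider list of 81 other ER genes gives the surroundings of these members. Of these, 76 had a row of their own and 70 were tested. At the study's cut-off 1 was lower, which is 1.43% against 4.33% of all genes, and none was higher. After adjustment in limma 0 were called. An unadjusted p under 0.05 was found for 5 of 70, beside 1413 of all 10021 tested genes. The median difference of the other ER genes was -0.11, with 45 of 70 below 0. The plot of cumulative differences sets both lists beside all genes.

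**Figure D5:**
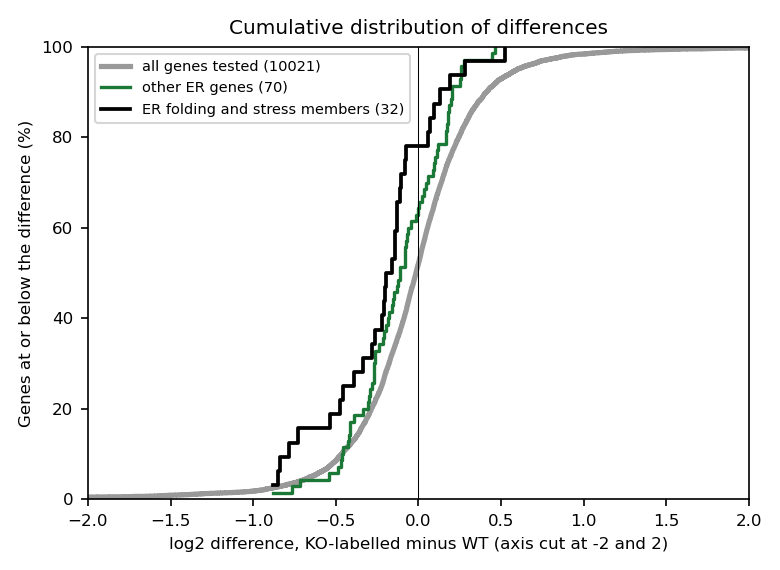
Cumulative share of genes (%) by log2 difference, KO-labelled minus WT, for the 32 tested members, 70 other ER genes and all 10021 tested genes; the axis is cut at -2 and 2. The medians are -0.18, -0.11 and -0.01.

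The other ER gene that was lower at the cut-off was Ssr4, another subunit of the translocon-associated complex. It stood at 8.89, 8.85 and 9.12 in WT and at 8.45, 7.74 and 8.03 in KO-labelled cells. No array overlapped, and the difference was -0.88 (interval -1.37 to -0.40, adjusted p = 0.141, limma), with -0.77 when WT2 and KO2 were both left out. Ssr1, Ssr2 and Ssr3, given above, did not pass.

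The PERK arm had no gene past the cut-off, 5 of 6 tested genes having a difference below 0. The kinase itself, Eif2ak3, differed by -0.41 (interval -0.98 to 0.15), with -0.22 without WT3 and, lower at the cut-off, -0.63 without WT2. Atf4, the transcription factor whose translation PERK raises, stood at 7.97, 8.19 and 7.94 in WT and at 7.71, 7.12 and 7.81 in KO-labelled cells. Its groups did not overlap (difference -0.48, interval -0.98 to 0.01, adjusted p = 0.361, limma), and the difference was -0.27 without KO2 and, lower at the cut-off, -0.62 without KO3. Trib3, an ATF4 target, stood at 7.69, 7.35 and 7.57 against 6.22, 6.47 and 7.62. KO1 and KO2 were well below every WT array and KO3 was level with WT (difference -0.77, interval -1.61 to 0.07, adjusted p = 0.388, limma), and it was -0.49 without KO1 and, lower at the cut-off, -1.19 without KO3. Ddit3 (CHOP), the stress-induced factor linked to cell death, differed by 0.20 (interval -0.73 to 1.13), Ppp1r15a by -0.07 and Ppp1r15b by -0.13. Atf3 was dim on every array, and Eif2s1 had no row of its own. Amino acid shortage is known to act on Atf4, Ddit3 and Trib3 as well.

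Within the Sec24 family of cargo adaptors the members lay on both sides. Beside -0.84 for Sec24d, Sec24a differed by -0.26 and Sec24b by 0.27, each without overlap, and Sec24c by 0.20. The differences between these genes were not tested. In each remaining role the gene with the smallest p missed the cut-off by its size or its p. These were Mbtps1, the site-1 protease that cleaves ATF6 (0.46, interval 0.05 to 0.88), Txndc5, a disulfide isomerase (-0.39), Dnajc1, an ER J-domain protein (-0.46, interval -0.81 to -0.10), Ube2g2, a ubiquitin-conjugating enzyme of ER-associated degradation (-0.42, interval -0.74 to -0.10), and Sec24b.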

How the data were processed

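CD8-TC samples (3 WT and 3 Runx3-/-) were measured, 1 array each. Per the study's methods and the labels, the authors imported scanner files into Partek and applied RMA with GC correction, and the deposited values are log2 per transcript cluster. For software and annotation, versions were not stated in those sources. Array summaries can understate changes of dim genes, which was not measured here.

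Of 35399 rows, 21789 had exactly 1 gene symbol, covering 19938 genes (table of platform annotation, names matched through GRCm38 synonyms where needed). A gene was tested if its highest value reached the table median, 4.26, which left 10021. Groups were compared with limma 3.58.1 in R 4.3.3 (lmFit, eBayes, two-sided, no covariate, Benjamini-Hochberg over the genes tested), also at the study's cut-off. The fit was checked on data drawn with known differences. Intervals are moderated 95% intervals. Named genes are every member, PERK-arm genes, other genes past the cut-off and the smallest p per role. Ero1a, Ero1b, Qsox1, Selenos, Sec24a, Sec24c, Atf6b and Creb3 were added once their values were seen. Members and lists were chosen with earlier results of these data known. Same-numbered arrays correlated at -0.131, -0.369 and -0.133 in their deviations, so numbers were not taken as pairs. Alternatives were the dim-row filter, quantile and median normalization, the mean of a gene's rows, a replicate block, trended and robust priors, an unmoderated model, and arrays left out. Promoters are RefSeq, GRCm38.p6. Figures used matplotlib 3.10.9.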

Additional observations from a re-analysis of the deposited data

How the results depend on the processing

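The counts of 3 members lower at the study's cut-off and 0 called after adjustment were the same with no filter, quantile or median normalization, the mean of rows, and trended and robust priors. With the replicate block (the numbers did not pair the arrays) and in the unmoderated model 2 remained, Xbp1 and Sec24d. Leaving out 1 array gave 2 to 7 members lower and 0 to 1 higher, and 1 to 3 other ER genes lower. Over all genes 3.00% to 7.42% were then lower and 2.44% to 5.13% higher. Ssr4 was lower each time. With 1 array left out, 6 to 19 members had no overlap downwards (19 without KO1). Such separation is easier to reach with fewer arrays, and its share over all genes was not computed for these settings. Median normalization gave 2 other ER genes lower, Ssr4 and Trib3. Without both WT2 and KO2, 1 member was lower and 1 other ER gene, Dnajc10, higher, and these differences changed sign (the cause was not tested): Hspa5 0.03, Hsp90b1 0.13, Hyou1 0.08, Canx 0.05, P4hb 0.22, Pdia4 0.26, Pdia6 0.08, Edem1 -0.04, Derl1 -0.04, Derl2 0.13, Ssr2 0.02 and Ddit3 -0.15. With median normalization Derl1 (-0.01) and Ssr3 (-0.00) did so, while the median of all genes moved from -0.01 to -0.09. Leaving out 1 array changed the sign of these small differences, which then ranged as follows: Hyou1 -0.40 to 0.06, Calr -0.42 to 0.05, P4hb -0.27 to 0.08, Pdia3 -0.06 to 0.24, Pdia4 -0.38 to 0.12, Derl2 -0.16 to 0.03, Ssr3 -0.03 to 0.25, Ddit3 -0.25 to 0.52 and Ppp1r15a -0.14 to 0.00.

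None of these genes had passed the cut-off. With 3 arrays a group, and values of dim genes near background, small differences cannot be resolved.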

Other observations

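Ero1a, the oxidase that recharges disulfide isomerases and is also known to respond to low oxygen, had the widest range over the 6 arrays among the tested genes of both ER lists. It stood at 7.93, 9.13 and 7.89 in WT and at 7.97, 7.71 and 10.04 in KO-labelled cells, with KO3 and WT2 high and no difference between the labels that its interval resolves (0.26, interval -1.27 to 1.79). Its paralog Ero1b stood between 5.46 and 6.20 in WT and between 5.55 and 6.26 in KO-labelled cells. KO3 and WT2, the arrays high in Ero1a, were not alike in the folding genes, where the mean deviation of the members was -0.17 and 0.26.

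Qsox1, a sulfhydryl oxidase that forms disulfide bonds outside the ER as well, stood at 7.5, 7.10 and 7.31 in WT and at 7.53, 7.57 and 7.57 in KO-labelled cells, a small difference without overlap (0.25, interval -0.09 to 0.60). Selenos, a selenoprotein of ER-associated degradation, stood at 7.01, 7.31 and 6.60 against 6.89, 6.41 and 6.38, and overlapped.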
